A study of Zea mays with 24 samples.

Results

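The leaf response of maize to cold nights was set against the leaf response to limited phosphate, transcript by transcript. For each array probe the change in low T leaves over control T leaves was taken, and the change in low P leaves over control P leaves was subtracted from it. This difference between the responses, on the log2 scale, is the quantity described here. It draws on 16 of the 24 arrays of the series, 4 each of low T, control T, low P and control P, and none of the 16 was left out.

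All plants were of the inbred line B73, raised in nutrient-poor peat with a modified Hoagland solution that held 15 mM nitrate, at day temperatures of 28 °C. Low T plants had nights of 4 °C and control T plants nights of 20 °C, both with 0.5 mM phosphate, and their leaf 5 was sampled at an age of 20 days. Low P plants were given 0.1 mM phosphate and control P plants 0.5 mM, both with nights of 20 °C, and their leaf 6 was sampled at 30 days. RNA came from the middle part of the leaf blade, cut in the morning, and the 4 samples of a group were described as biological replicates with no word on shared trays or pooled plants. The experiments also differed in growth site, light source and season. Each stress was compared with controls of its own experiment, but age, leaf and growth conditions cannot be told apart from the kind of stress when the responses differ. A lower signal in whole leaf tissue can mean fewer cells of a type or less RNA per cell, and these cannot be told apart either. The methods describe 2 successive plantings of the low temperature experiment and 1 of the low phosphate experiment, with no word on which replicate came from which planting. The p-values thus measure the spread between these samples, which can hold a planting effect in the low temperature experiment.

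As background, the plant response to phosphate shortage is known mainly from Arabidopsis and rice. MYB factors of the PHR1 type switch on genes for phosphate uptake and recycling, and SPX proteins, named after a domain that senses inositol pyrophosphates, hold these factors back while phosphate is plentiful. The ubiquitin conjugase PHO2 lowers phosphate transporters at the membrane, its own mRNA is cut under guidance of miR399, and noncoding RNAs of the IPS1 type bind that microRNA. Cold nights slow leaf growth and the use of sugars in sink organs, while a source leaf goes on fixing carbon by day.

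Signals were log2 spot intensities relative to the 75th percentile of each array, so that 0 marks that percentile and 1 unit is a 2-fold step. Of 41780 transcript probes, 31462 were tested, those that exceeded background clearly in every replicate of 1 group or more, and 26628 did so on all 16 arrays. On 14 arrays 28075 to 32410 probes were well above background, and control T replicate 3 with 35451 and low P replicate 1 with 36966 stood apart from these. Results were therefore also computed without those 2 arrays. Both low temperature groups were spread over the same 2 slides, with replicates 1 and 2 on the first and 3 and 4 on the other. All control P arrays shared 1 slide and all low P arrays another, so that slide and phosphate supply cannot be told apart. The leaf identity of the samples was checked by C4 transcripts: the C4 phosphoenolpyruvate carboxylase of mesophyll and the NADP-malic enzyme and phosphoenolpyruvate carboxykinase of bundle sheath stood at or above the 99th percentile on every array, whereas the probe for the mesophyll enzyme pyruvate phosphate dikinase ranged down to percentile 50.8. Among these 4 markers the carboxykinase differed between the responses, by 1.05 (adjusted p = 0.00125).

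With a limit of 2-fold and a limma adjusted p of 0.05, 7872 of 31462 transcripts (25.0%) were called, and the responses of these transcripts to cold nights and to low P differed. The difference was higher, meaning more positive in the cold than under low P, in 3088 transcripts (9.82%), and lower in 4784 (15.2%). Large differences were mostly lower ones: 263 were lower by more than 32-fold and 42 were higher by that much. Over all transcripts the low T and low P changes were weakly negatively related (Pearson r = -0.16 across transcripts, which are not independent), and 55.2% had opposite signs. The share of higher calls among all calls, 39.2%, depended on scaling. It was 54.5% after quantile normalisation (4380 higher, 3652 lower), 58.0% with spike-in scaling (4210 and 3043) and 22% when that scaling used the spike-in probes well above background alone (1802 and 6403). Without the 2 arrays that stood apart it was 48.3% (3946 and 4231). The lists described as higher or lower below kept the sign of their median under each of these settings.

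The single responses show how the called differences were made up. Cold nights raised 2285 transcripts (7.26%) and lowered 2240 (7.12%), and low P raised 2587 (8.22%) and lowered 947 (3.01%). These balances also depended on scaling: with spike-in scaling 5214 transcripts were higher and 1075 lower in the cold, and 4049 higher and 609 lower under low P, while quantile normalisation gave 2631 and 1859 in the cold and 2063 and 1505 under low P. Of the transcripts with a called difference, 652 (8.28%) were called in both responses with opposite signs, 537 of them lower in the cold and higher under low P with a median difference of -4.03, and 115 the other way round with a median of 3.14. A further 2621 (33.3%) passed in the low T response alone and 1708 (21.7%) in the low P response alone. In 2840 (36.1%) neither change passed and only their difference did, with medians of 1.20 for the higher and -1.27 for the lower ones. Just 51 were called in both responses with the same sign and yet differed in size. In 557 of the 652 opposite transcripts stressed and control replicates did not overlap in either experiment. The same held for 46 of the 51 same-sign ones and for 883 of the 2840 in which neither change passed. It held for 831 of the 2621 that passed in the low T response alone and for 216 of the 1708 in the low P response alone. A call in both responses favours such separation, so it is not separate evidence. The share over all transcripts tested was not counted.

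**Figure D1:**
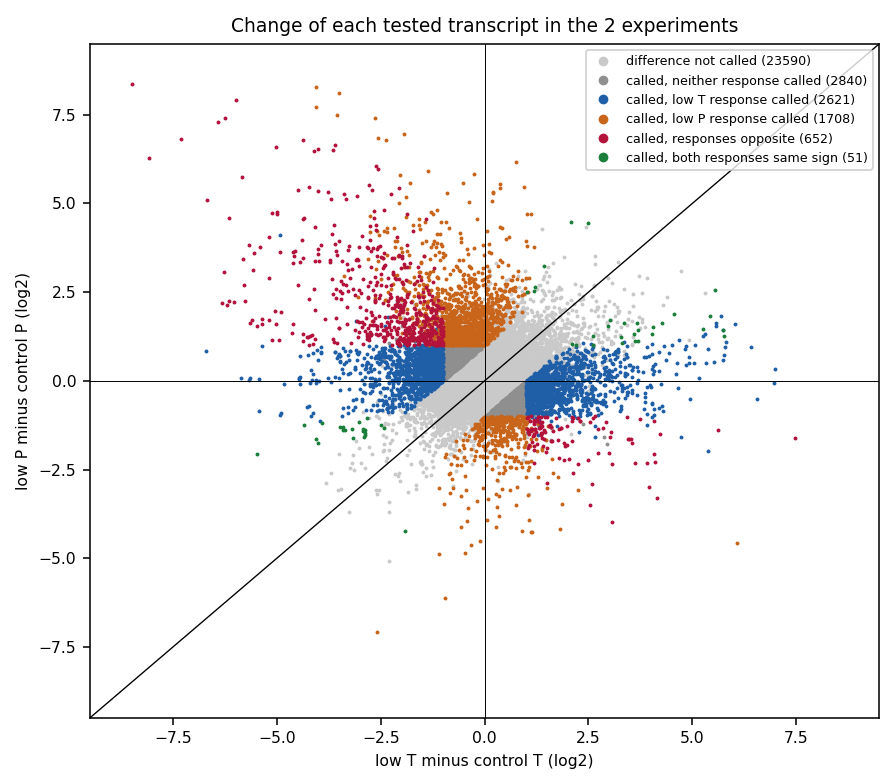
Log2 change in low T over control T leaves (x axis) against log2 change in low P over control P leaves (y axis) for the 31462 transcripts tested, 1 point each, coloured by which of the changes passed. The 652 transcripts with opposite calls fill the upper left and lower right corners, and 537 of them lie in the upper left, lower in the cold and higher under low P.

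Transcripts of the phosphate response stood out among the named groups. The study's 5 lists of phosphate-related transcripts hold 54 tested members, and 33 of them (61.1%) had a lower difference against 15.2% of all transcripts, while 1 had a higher one against 9.82%. Their median difference was -1.96, beside -0.07 for all transcripts, and was made up of a median change of -1.06 in the cold and 0.56 under low P. The cold lowered 26 and raised 1 of the 54, and low P raised 22 and lowered 2. The study compiled these lists from orthologs of known genes. It reported their changes in these same samples, so the direction is not independent evidence. Under all alternatives 31 to 35 members were lower and 1 to 4 higher, and with the low temperature arrays of 1 slide at a time 31 and 32 were lower.

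**Figure D2:**
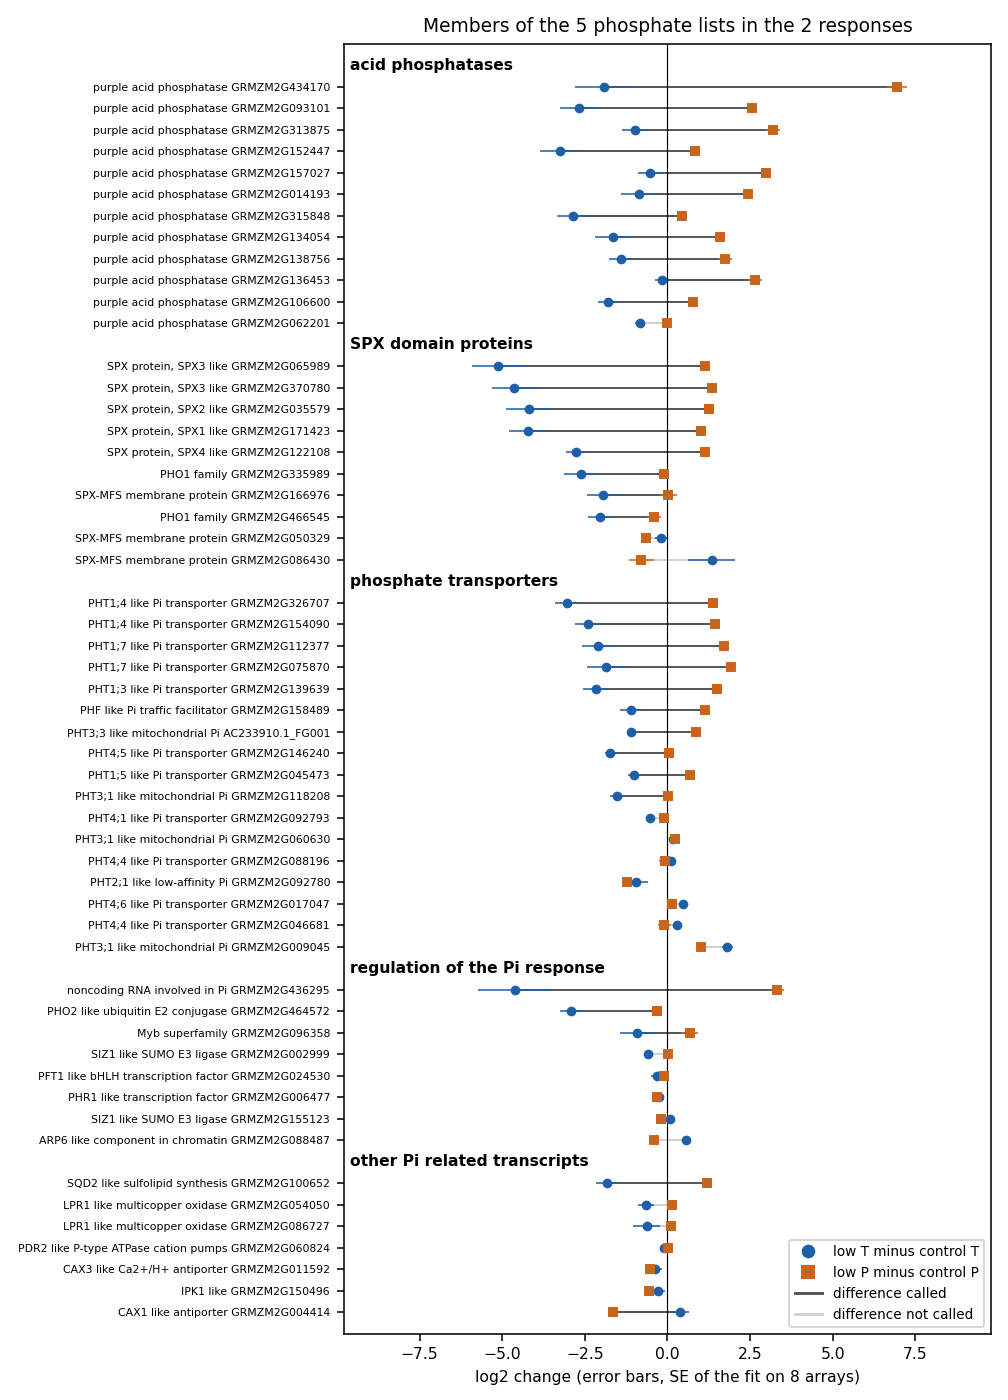
Log2 changes of the 54 tested members of the 5 phosphate lists, with a point for the low T change and a point for the low P change joined by a line, members running down the page within their list. For 33 members the low T change lies significantly below the low P change, and for 1, a CAX1-like antiporter, above it.

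Among the signalling components, the SPX proteins with no further domain were lower throughout. GRMZM2G065989, an SPX3-like protein, had log2 signals of 2.44, -1.5, -0.31 and -1.07 in low T leaves, against 5.35, 5.49, 4.85 and 4.39 in control T leaves. It had 5.71, 5.74, 5.38 and 5.59 in low P leaves, against 4.48, 4.53, 4.38 and 4.42 in control P leaves. Every cold replicate was below every control, and every low P replicate above its controls. The transcript was thus 35-fold lower under cold nights and 2.22-fold higher under low P, and the difference was -6.28 ± 0.85 (SE, n = 4 arrays per group, adjusted p = 6.1e-05). All 5 SPX-only proteins behaved in this way, with called changes of opposite sign and a median difference of -5.47. The SPX4-like GRMZM2G122108 had 0.87, -0.48, -0.51 and -0.29 in low T leaves, against 2.58, 2.78, 2.72 and 2.63 in control T leaves, and a difference of -3.92 ± 0.33 (adjusted p = 1.76e-06). The remaining members were the SPX3-like GRMZM2G370780 at -5.98, the SPX1-like GRMZM2G171423 at -5.25 and the SPX2-like GRMZM2G035579 at -5.47. The SPX2-like transcript was well above background on 1 of 4 low T arrays, so its size is less certain than the others. Low T replicate 1 was the highest cold array for SPX1-, SPX3- and SPX4-like transcripts.

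SPX proteins with a membrane domain showed a different pattern. In the PHO1 family, whose Arabidopsis founder exports phosphate to the xylem, GRMZM2G335989 had a difference of -2.50 and GRMZM2G466545 of -1.64. These came from the cold side, with low T changes of -2.61 and -2.04 beside low P changes of -0.11 and -0.40. GRMZM2G466545 was not called with slide 1 alone (-0.76). Of 3 SPX-MFS proteins, a type that moves phosphate across the vacuolar membrane in rice, GRMZM2G166976 was lower (-1.98), and GRMZM2G086430 had a positive difference of 2.14 that did not pass (adjusted p = 0.0615). It passed, as higher, with the replicate number or the slide as a block.

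The regulatory transcripts upstream were less uniform. The noncoding RNA GRMZM2G436295, listed for phosphate allocation, had 2.46, -0.28, 0.09 and -1.05 in low T leaves, against 6.47, 6.72, 4.12 and 2.37 in control T leaves. In low P leaves it had 6.75, 6.80, 6.47 and 6.92, against 3.62, 3.48, 2.82 and 3.71 in control P leaves. The low P and control P replicates were clearly apart, whereas low T replicate 1 just exceeded control T replicate 4. The difference was -7.94 ± 1.19 (adjusted p = 0.000138), and within the slides it was -8.83 and -7.06. The PHO2-like ubiquitin conjugase GRMZM2G464572 had 2.11, 0.35, 1.59 and 1.66 in low T leaves, against 4.37, 4.21, 4.36 and 4.44 in control T leaves. It had 4.43, 4.45, 4.21 and 4.59 in low P leaves, against 4.87, 4.83, 4.71 and 4.54 in control P leaves. Its difference of -2.60 ± 0.37 (adjusted p = 9.9e-05) thus arose from a 7.54-fold lower signal in the cold, with a low P change of -0.32. The PHR1-like factor GRMZM2G006477 had changes of -0.25 and -0.31 and a difference of 0.06 ± 0.17 (adjusted p = 0.795). The SIZ1-like SUMO ligases, the PFT1-like factor and the ARP6-like protein were not called, with differences between -0.61 and 0.98. A MYB factor of this list, GRMZM2G096358, was called at -1.60, but lost the call under 19 alternatives.

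Of the transporters, the high-affinity PHT1 family, which takes up phosphate at the plasma membrane, held the largest differences. The gene pht1 (GRMZM2G326707) had -0.08, -1.27, -0.67 and -0.89 in low T leaves, against 2.76, 2.92, 2.04 and 1.48 in control T leaves. It had 3.60, 3.73, 3.36 and 3.22 in low P leaves, against 2.01, 2.35, 2.01 and 2.05 in control P leaves. Groups did not overlap in either experiment, and the difference was -4.40 ± 0.41 (adjusted p = 3.5e-06). All 6 PHT1-like transcripts were lower, 5 of them with opposite calls, at -3.83 for pht2, -3.80 for pht7, -3.77 for pht10 and -3.68 for pht11. The sixth, pht3 (GRMZM2G045473), had -1.70, with a called low T change of -1.02 and a low P change of 0.68 that did not pass. In pht10 the low T and control T replicates overlapped. Of the 11 transcripts of the other transporter families, 4 were lower, and the median difference was -0.07. These 4 were the PHF-like traffic facilitator GRMZM2G158489 (-2.23), which helps PHT1 proteins leave the endoplasmic reticulum in Arabidopsis, a PHT4;5-like transcript (-1.76), and 2 mitochondrial carriers of the PHT3 type (-1.94 and -1.57). Another PHT3;1-like carrier, GRMZM2G009045, was higher in both stresses, by 1.81 in the cold and 1.02 under low P. The chloroplast-type PHT2;1-like GRMZM2G092780 had changes of -0.96 and -1.22. The differences of both were not called.

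The purple acid phosphatases, enzymes that release phosphate from organic esters, differed nearly as a whole, with unequal shares of the cold and the low P change. GRMZM2G434170 had -1.35, -1.06, -1.39 and -2.40 in low T leaves, against 1.90, 2.11, -0.73 and -1.74 in control T leaves. It had 4.66, 4.95, 3.48 and 4.30 in low P leaves, against -2.70, -2.29, -2.77 and -2.71 in control P leaves. The low P leaves were far above their controls, a 125-fold change. The cold groups overlapped and the low T change of -1.93 did not pass (adjusted p = 0.121). With the replicate number as a block its adjusted p was 0.0506, and with the slide as a block 0.0274, which passed. The difference was -8.90 ± 0.97 (adjusted p = 1.1e-05). Of 12 acid phosphatases 11 were lower, with a median difference of -3.30. For 5 of the phosphatases, GRMZM2G434170, GRMZM2G313875, GRMZM2G157027, GRMZM2G014193 and GRMZM2G136453, the low P change alone passed, at 2.44 to 6.96. For GRMZM2G152447, GRMZM2G315848 and GRMZM2G106600 the cold change alone passed, at -3.24, -2.85 and -1.79. GRMZM2G138756 had opposite calls, and so had one probe each of GRMZM2G134054 (-3.25) and GRMZM2G093101 (-5.24). For GRMZM2G134054 the cold groups overlapped, and a further probe gave -3.27 with the low P change alone passing. A further probe of GRMZM2G093101 gave 3.60, so the direction of that locus is not settled. At GRMZM2G062201 the difference of -0.81 was not called.

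Among the other phosphate-related transcripts, the SQD2-like GRMZM2G100652, for sulfolipid synthesis that replaces phospholipid in membranes, had 0.72, -0.16, 0.39 and 0.01 in low T leaves, against 2.60, 2.46, 1.98 and 1.28 in control T leaves. It had 2.67, 2.43, 2.66 and 2.57 in low P leaves, against 1.39, 1.50, 1.57 and 1.09 in control P leaves, and neither pair of groups overlapped. Its difference was -3.03 ± 0.36 (adjusted p = 1.98e-05). The CAX1-like antiporter GRMZM2G004414, for export of cations into the vacuole, was the 1 member with a higher difference (2.05, adjusted p = 0.000138), from a low P change of -1.66 beside 0.39 in the cold. The LPR1-, PDR2-, CAX3- and IPK1-like transcripts were not called.

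**Figure D3:**
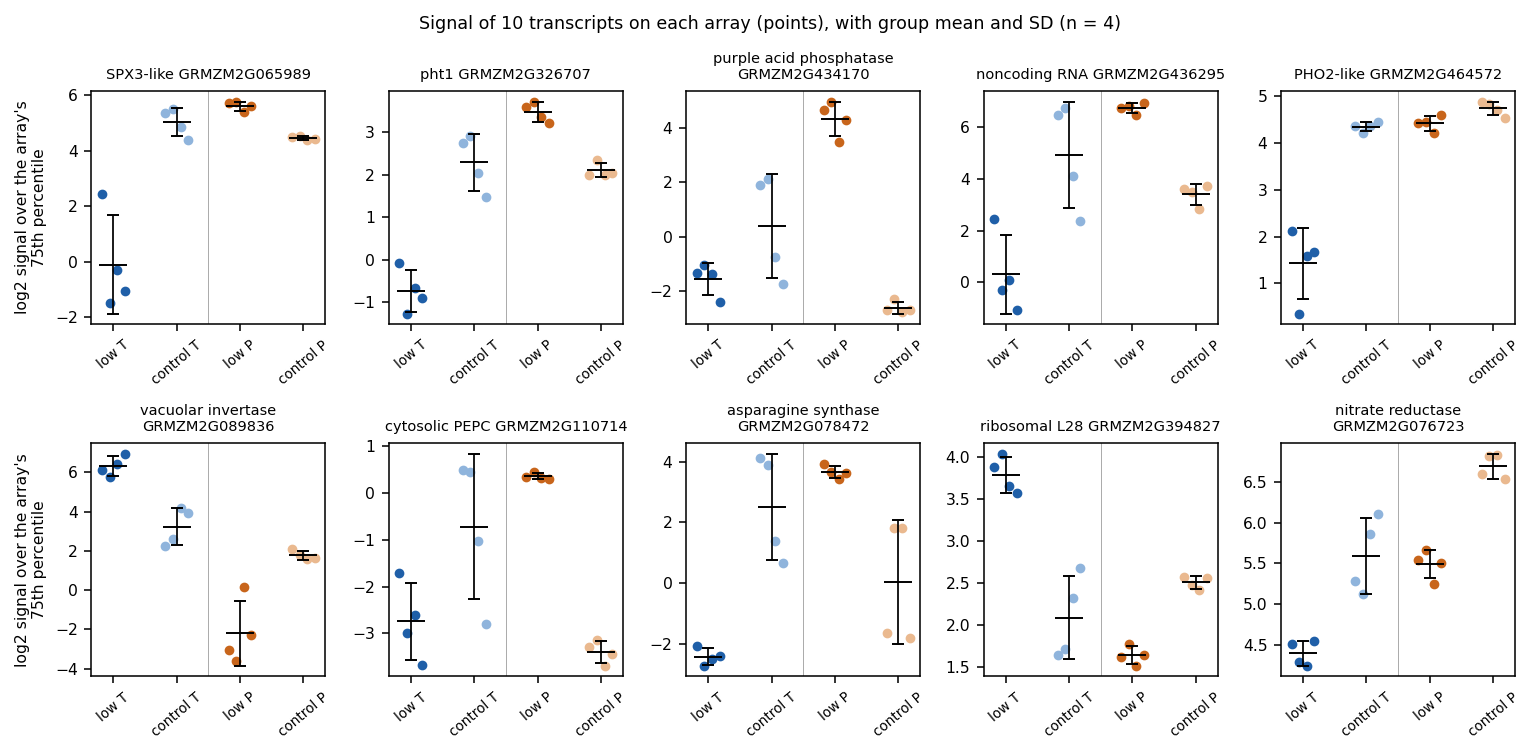
Log2 signal relative to the array's 75th percentile (y axis) of 10 transcripts on each of the 16 arrays, grouped as low T, control T, low P and control P, with mean and SD (n = 4). In the SPX3-like and pht1 panels the low T points lie below and the low P points above their own controls, while in the nitrate reductase panel both stressed groups lie below their controls.

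Ribosomal protein transcripts moved the other way. Of 204 tested, 127 had a higher difference, against 9.82% of all transcripts, and 1 a lower one. Their median difference was 1.29, and 182 were above 0. The cold raised 106 of them, with a median change of 1.05, and low P lowered 1, with a median change of -0.25. The median log2 signal over the 204 was 2.15, 2.50, 2.30 and 2.24 in low T leaves, against 1.02, 0.99, 1.30 and 1.57 in control T leaves. It was 1.17, 1.32, 1.19 and 1.30 in low P leaves, against 1.64, 1.47, 1.58 and 1.58 in control P leaves. The groups did not overlap in either experiment, but the shift in the cold was the larger one.

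Cytosolic subunits made up most of this. Of 106 transcripts of the large (60S) subunit 75 were higher, and of 61 of the small (40S) subunit 43, with medians of 1.44 and 1.40. Of the 37 other ribosomal proteins 9 were higher, with a median of 0.55. GRMZM2G394827, for L28 of the large subunit, had 3.88, 4.04, 3.65 and 3.57 in low T leaves, against 1.65, 1.72, 2.32 and 2.68 in control T leaves. It had 1.62, 1.78, 1.52 and 1.65 in low P leaves, against 2.58, 2.48, 2.42 and 2.56 in control P leaves. Its difference of 2.56 ± 0.27 (adjusted p = 8.52e-06) was the largest among the 204 listed probes, with no overlap between stressed and control leaves. L37 (GRMZM2G303374) was the 1 listed probe with opposite calls, at 1.30 in the cold and -1.03 under low P. A further probe of the L28 locus, outside the list, also had opposite calls, at 2.30 and -1.13, with a difference of 3.43. S21 (GRMZM2G301208) was the 1 with a lower difference, at -1.01. Ribosomal genes come as near-identical copies in maize, so a probe may read several of them. Across alternatives 101 to 133 were higher, the median lay between 1.00 and 1.52, and it was 1.49 with slide 1 and 1.12 with slide 2.

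**Figure D4:**
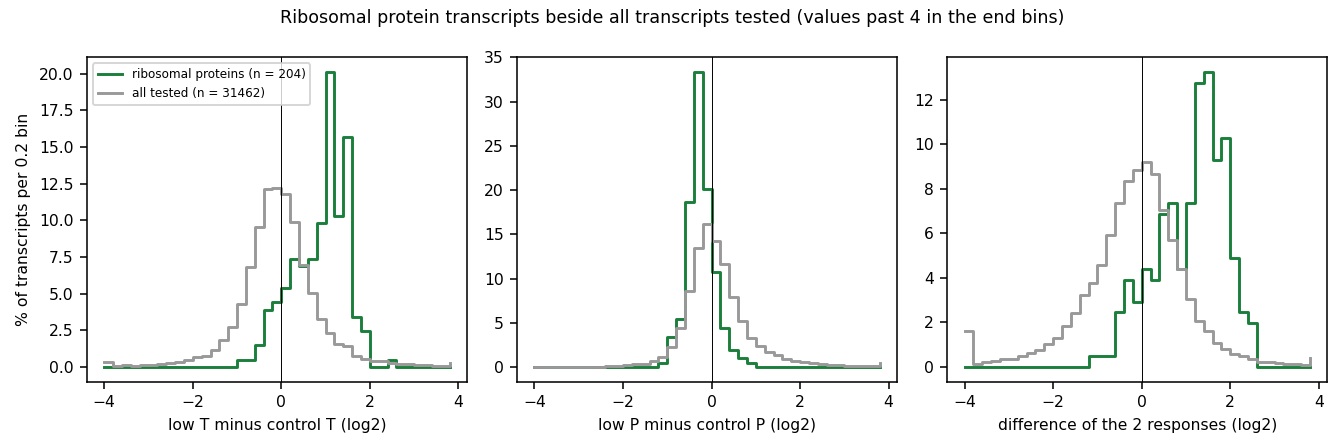
Distribution of the log2 low T change, the log2 low P change and their difference (x axes) over 204 ribosomal protein transcripts and over all 31462 tested, as the share of each set per bin (y axis). The ribosomal distribution is centred at 1.05 in the cold, at -0.25 under low P and at 1.29 for the difference.

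Sugar and glycolytic transcripts split by step. The vacuolar invertase GRMZM2G089836, which cleaves stored sucrose, had 6.10, 5.75, 6.45 and 6.96 in low T leaves, against 2.25, 2.60, 4.21 and 3.91 in control T leaves. It had -3.05, -3.60, 0.16 and -2.30 in low P leaves, against 2.12, 1.77, 1.59 and 1.66 in control P leaves. Cold leaves were all above and low P leaves all below their controls, and the difference of 7.05 ± 0.92 (adjusted p = 4.55e-05) was the largest on the sucrose list. The cell wall invertase Incw1 (GRMZM2G139300) had 1.33, 1.47, 1.67 and 1.66 in low T leaves, against 1.13, 1.27, 1.25 and 1.26 in control T leaves. In low P leaves it had 0.90, 1.71, 1.08 and 1.13, against -0.73, -0.43, -0.42 and -0.80 in control P leaves. Its change was thus larger under low P, and the difference was -1.49 ± 0.22 (adjusted p = 0.000131). Of 6 transcripts of sucrose phosphate synthase, which commits carbon to sucrose, 4 were lower, at -2.14 for GRMZM2G008507, -1.81 for GRMZM2G140107, -1.80 for GRMZM2G013166 and -1.34 for GRMZM2G462613. The sucrose transporter SUT1 (GRMZM2G034302), for phloem loading, was lower on both of its probes (-1.18 and -1.40). By contrast 2 other sucrose transporters were higher, GRMZM2G081589 by 2.96 and GRMZM2G106741 by 2.85, and for both the cold change passed and the low P change did not. Over the 33 transcripts of sucrose metabolism, 12 were lower and 3 higher, against 15.2% and 9.82% of all transcripts, with a median of -0.47.

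Enzymes that bypass phosphate- or ATP-dependent steps of glycolysis are known to be induced by phosphate shortage. The cytosolic phosphoenolpyruvate carboxylase GRMZM2G110714 had -1.71, -2.99, -2.60 and -3.67 in low T leaves, against 0.49, 0.45, -1.02 and -2.80 in control T leaves. It had 0.34, 0.45, 0.32 and 0.30 in low P leaves, against -3.30, -3.13, -3.69 and -3.44 in control P leaves. Low P leaves stood well above their controls, the cold groups overlapped, and the low T change of -2.02 did not pass (adjusted p = 0.0752). It passed with the replicate number as a block (adjusted p = 0.0216). The low T value was below the control T value of the same number each time, though no label pairs these samples. The difference was -5.76 ± 0.82 (adjusted p = 8.88e-05). The pyrophosphate-dependent phosphofructokinase GRMZM2G059151 had 1.30, 0.46, 0.98 and 0.46 in low T leaves, against 2.49, 2.54, 2.11 and 1.44 in control T leaves. It had 2.47, 2.65, 2.55 and 2.63 in low P leaves, against 1.99, 1.96, 1.70 and 1.75 in control P leaves, and a difference of -2.07 ± 0.32 (adjusted p = 0.000186). Another transcript of this enzyme, GRMZM2G123371, had a higher difference of 1.28, so its transcripts did not move as one. Of 40 glycolytic transcripts 12 were lower and 4 higher (all transcripts 15.2% and 9.82%), with a median of -0.55. A cytosolic glyceraldehyde-3-phosphate dehydrogenase (GRMZM2G176307, -1.80) and a triosephosphate isomerase (GRMZM2G146206, -1.47) were raised by low P, by 2.34 and 2.08, beside changes of 0.54 and 0.61 in the cold. The aldolase GRMZM2G345493 had the largest glycolytic difference, 3.47, with a low P change of -3.19 and a low T change of 0.28.

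Starch transcripts had no common direction, with 4 of 28 higher and 4 lower, near the shares of all transcripts. The chloroplast beta-amylase GRMZM2G025833, which breaks down leaf starch, was higher (4.08) with a low T change of 3.68 and a low P change of -0.40. The beta-amylase GRMZM2G058310 was lower (-5.06) with changes of 0.38 in the cold and 5.44 under low P. A small subunit of ADP-glucose pyrophosphorylase, the entry into starch synthesis (GRMZM2G106213), had opposite calls of -2.38 and 1.50.

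**Figure D5:**
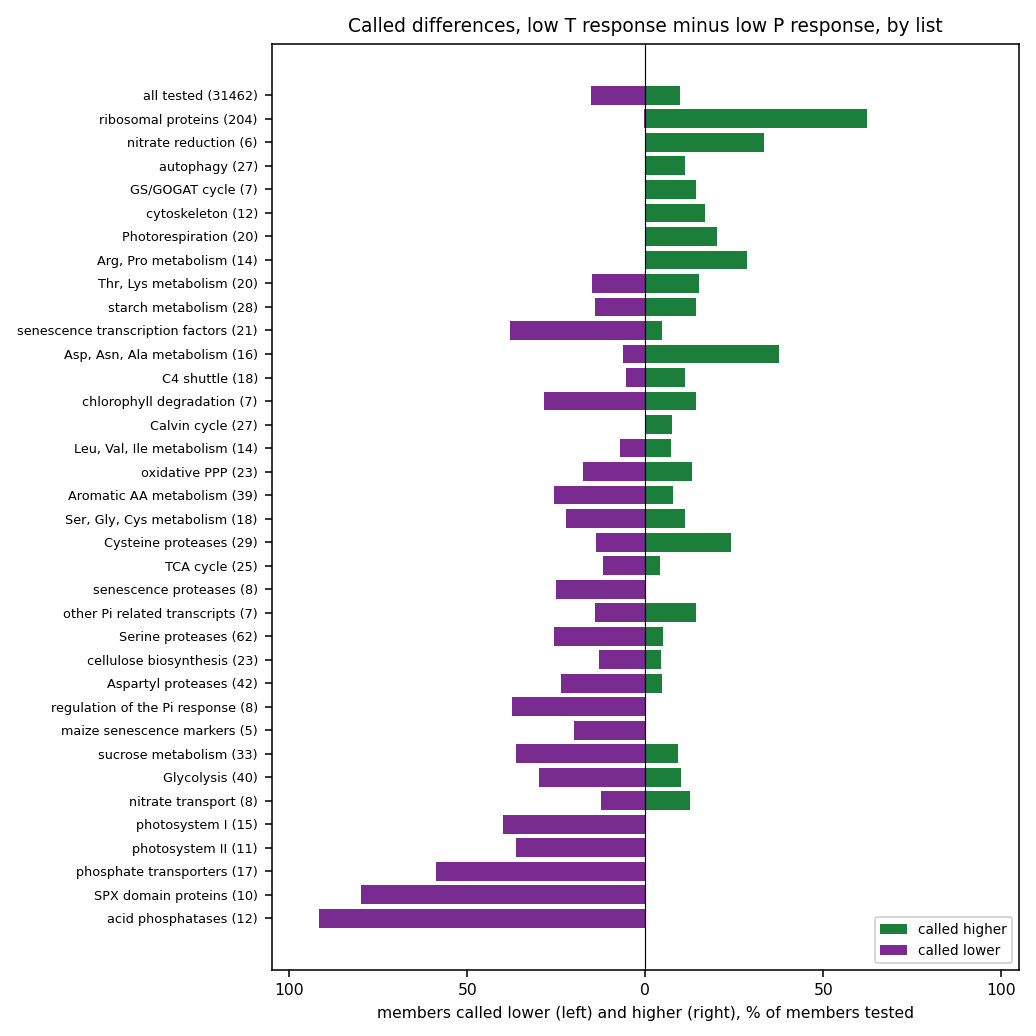
Share of the tested members of each of the study's lists (y axis) that had a higher or a lower difference between the low T and low P responses (x axis, percent), beside the share over all transcripts tested (9.82% higher, 15.2% lower). Ribosomal proteins have the most higher calls and the acid phosphatases the highest share of lower calls.

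Nitrogen transcripts held both close matches and wide gaps between the responses. The nitrate reductase GRMZM2G076723, for the first step of nitrate assimilation, had 4.51, 4.29, 4.25 and 4.55 in low T leaves, against 5.28, 5.13, 5.86 and 6.10 in control T leaves. It had 5.54, 5.66, 5.25 and 5.51 in low P leaves, against 6.59, 6.81, 6.83 and 6.53 in control P leaves. It was lower in both stresses by a like amount, and the difference was 0.01 with a 95% confidence interval of -0.56 to 0.58 (adjusted p = 0.978). The interval for a further nitrate reductase, GRMZM2G142386, was -0.52 to 0.45 around -0.04. Low P lowered all 6 transcripts of nitrate reduction (3.01% of all transcripts), the cold lowered 2 (7.12%), and 2 had a higher difference (9.82%). The count was 3 with the replicate number as a block and 4 with the slide as a block. The 2 were ferredoxin-nitrite reductase (GRMZM2G079381, 1.14) and uroporphyrin III methyltransferase (GRMZM2G000739, 3.53), which makes the siroheme that nitrite reductase needs. The dual-affinity transporter NRT1.1 (GRMZM2G112154) was higher by 2.05, with a low P change of -1.73.

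A low-affinity nitrate transporter and an asparagine synthase lay at the other end. The transporter GRMZM2G150468 had -2.57, -2.99, -2.81 and -3.01 in low T leaves, against 1.39, 1.55, -1.20 and -2.80 in control T leaves. It had 1.32, 1.40, 1.19 and 1.56 in low P leaves, against -3.01, -2.73, -2.84 and -2.89 in control P leaves, and a difference of -6.81 ± 0.98 (adjusted p = 9.7e-05). The cold groups overlapped, since a control T replicate lay at the level of low T. The low T change of -2.58 did not pass (adjusted p = 0.0623), also with the replicate number as a block (adjusted p = 0.054), and passed with the slide as a block (adjusted p = 0.0227). The asparagine synthase GRMZM2G078472, which loads nitrogen onto aspartate, had -2.06, -2.71, -2.49 and -2.38 in low T leaves, against 4.12, 3.88, 1.38 and 0.65 in control T leaves. It had 3.93, 3.64, 3.44 and 3.63 in low P leaves, against -1.64, 1.80, 1.81 and -1.80 in control P leaves, and a difference of -8.53 ± 1.24 (adjusted p = 0.000108). No groups overlapped, but control P values were divided. The other asparagine synthases, GRMZM2G142802 (3.50) and GRMZM2G074589 (1.46), and the asparaginase GRMZM2G082032 (3.45) had higher differences. For delta-1-pyrroline-5-carboxylate synthase, the entry into proline synthesis, GRMZM2G375504 had 1.35, 1.13, 1.64 and 2.07 in low T leaves, against -0.64, -1.09, -0.21 and -0.30 in control T leaves. It had -1.72, -1.86, -1.79 and -1.99 in low P leaves, against -1.82, -1.77, -1.66 and -1.78 in control P leaves. Its difference of 2.19 ± 0.28 (adjusted p = 4.3e-05) was thus a cold change, and GRMZM2G028535 of the same enzyme had 1.89.

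In aromatic amino acid synthesis 10 of 39 transcripts were lower and 3 higher, against 15.2% and 9.82% of all, and the tryptophan branch had the largest values. The list had no common direction, with 20 differences below 0 and 19 above. Its median of -0.01 ranged from -0.31 to 0.21 across alternatives. Tryptophan synthase alpha (GRMZM2G085381) had a difference of -6.08, with changes of -2.15 in the cold and 3.93 under low P. The cold change passed with the replicate number as a block (adjusted p = 0.0362), and not without it (adjusted p = 0.111). A subunit of anthranilate synthase (GRMZM2G106950) had -5.21. A serine O-acetyltransferase, for the step into cysteine (GRMZM2G013430), had -4.36, with a low T change of -4.45 and a low P change of -0.10.

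Photosystem transcripts were lower as a group but by little. All 15 of photosystem I and all 11 of photosystem II had a negative difference, with medians of -0.77 and -0.87, and 6 and 4 of them passed, against 15.2% of all transcripts. The median signal of photosystem I was 7.91, 7.76, 7.55 and 7.80 in low T leaves, against 8.77, 8.73, 8.12 and 8.16 in control T leaves. It was 7.51, 7.77, 7.96 and 7.74 in low P leaves, against 7.37, 7.60, 7.83 and 7.43 in control P leaves. The cold groups were apart and the phosphate groups overlapped. The calls depended on the processing, with 0 to 8 for photosystem I and 1 to 9 for photosystem II across alternatives. Of 18 C4 shuttle transcripts 2 were higher and 1 lower, and of 27 Calvin cycle transcripts 2 were higher, close to or below the shares of all transcripts (9.82% higher, 15.2% lower). Photorespiration had 4 of 20 higher, led by a serine hydroxymethyltransferase (GRMZM2G078143, 1.91).

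Among described transcripts measured well above background on all 16 arrays, those with the most negative differences had other functions. An AMP-binding protein, GRMZM2G070837, of the family that activates acids with ATP, had -2.23, -5.41, -5.86 and -6.26 in low T leaves, against 4.42, 4.63, 2.25 and 1.26 in control T leaves. It had 5.18, 5.29, 4.55 and 5.07 in low P leaves, against -0.80, -0.52, -2.29 and -1.44 in control P leaves. It was 270-fold lower in the cold and 78.1-fold higher under low P, and its difference of -14.37 ± 1.20 (adjusted p = 1.57e-06) was -14.63 on slide 1 and -14.10 on slide 2. The SCP-domain protein GRMZM2G465226, of the family of pathogenesis-related protein 1, had -2.73, -3.30, -3.71 and -3.72 in low T leaves, against 4.89, 5.59, 1.49 and 1.34 in control T leaves. In low P leaves it had 4.35, 5.79, 3.82 and 5.75, against -0.03, -0.11, -0.36 and -0.17 in control P leaves, and a difference of -11.79 ± 1.14 (adjusted p = 4.39e-06). No group overlapped its control in either of these transcripts. Other transcripts near this end were another SCP-domain protein (GRMZM2G053493, -10.74), a glutathione S-transferase (GRMZM2G016241, -10.58), a serine carboxypeptidase (GRMZM2G373607, -11.59) and an ABC transporter (GRMZM2G111462, -9.75). The glutathione peroxidase GRMZM2G011025, an enzyme that reduces peroxides, had -0.76, -3.14, -3.48 and -4.80 in low T leaves, against 4.16, 4.22, -0.38 and -3.97 in control T leaves. In low P leaves it had 3.39, 3.61, 3.35 and 3.61, against -5.01, -4.53, -5.58 and -4.08 in control P leaves. Its difference was -12.34 ± 1.99 (adjusted p = 0.000243), but the cold groups overlapped and the low T change of -4.05 did not pass (adjusted p = 0.127). With the replicate number as a block it passed (adjusted p = 0.0373).

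In many of these lower transcripts control T replicates 1 and 2, on the first slide, were above replicates 3 and 4. Within-slide differences were -14.43 and -10.26 for GRMZM2G011025, -8.49 and -5.14 for the nitrate transporter GRMZM2G150468, and -6.56 and -4.96 for the carboxylase GRMZM2G110714. All 3 kept the sign and the call on both slides. Among all 7872 called transcripts the sign was the same on both slides, and 5532 (70.3%) were called on each. Both fits shared the low P and control P arrays, and the calls were made on these same arrays. The agreement in sign is therefore largely built in. Whether the slides follow the 2 plantings is not stated, and the part of either in these values was not tested.

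By the same conditions the most positive difference was that of a PEBP family protein, AC197705.4_FG003, a family that includes regulators of flowering. It had 4.08, 3.89, 5.04 and 5.22 in low T leaves, against -3.37, -3.23, -2.53 and -2.51 in control T leaves. It had -3.35, -4.45, -4.08 and -3.75 in low P leaves, against -2.12, -1.91, -2.48 and -2.63 in control P leaves. The cold raised it 177-fold, low P lowered it 3.08-fold, no groups overlapped, and the difference was 9.09 ± 0.46 (adjusted p = 3.67e-08). A gamma subunit of AMP-activated protein kinase, GRMZM2G172214, part of an energy-sensing complex, had 3.92, 3.97, 3.89 and 4.49 in low T leaves, against 0.00, 0.00, -0.12 and 0.57 in control T leaves. It had 3.63, 3.33, 3.70 and 2.93 in low P leaves, against 6.10, 6.24, 6.49 and 6.73 in control P leaves. The groups were apart in both experiments and the difference was 6.95 ± 0.30 (adjusted p = 8.73e-09). Other probes of this locus gave 3.28 and 7.47. Glutamate decarboxylase GRMZM2G451314, which makes gamma-aminobutyric acid, had 3.89, 3.89, 4.45 and 4.84 in low T leaves, against -0.22, -0.18, 0.72 and 1.15 in control T leaves. In low P leaves it had -0.46, -0.47, 0.04 and -0.48, against 2.17, 1.89, 1.90 and 1.98 in control P leaves, and its difference was 6.22 ± 0.41 (adjusted p = 3.27e-07). An amino acid transporter (GRMZM2G101125, 5.16), the homeodomain factor HEX (GRMZM2G117164, 5.2), an alpha/beta-hydrolase (GRMZM2G093441, 5.70) and CIPK5, a kinase that works with calcium sensors (GRMZM2G330049, 4.73), also had opposite calls.

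Among transcripts called in both responses, the same direction was less frequent than the opposite one. Of these 989 transcripts, 652 had opposite signs and 337 the same sign, 213 higher and 124 lower. Of all transcripts tested, the cold raised 7.26% and lowered 7.12%, and low P raised 8.22% and lowered 3.01%. Whether 337 is more or fewer than unrelated calls would give was not tested. In 51 of the 337 the sizes differed by more than 2-fold. A cystathionine lyase-like transcript, GRMZM2G450498, was higher by 5.43 in the cold and by 1.83 under low P, and a tropomyosin-like transcript, GRMZM2G120897, by 5.25 and 1.46. A GMC oxidoreductase, GRMZM2G166906, had changes of -4.35 and -1.25, but its difference of -3.09 was not called with slide 1 alone (-1.48) or without the 2 arrays that stood apart (-2.67). At the other end GRMZM2G145972, an NADH dehydrogenase, changed by 1.13 in both stresses and the MYB-like regulator GRMZM2G010920 by -1.17 in both.

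Of the 87 named transcripts with a called difference, low T and control T replicates did not overlap in 57, and low P and control P replicates did not overlap in 74. Part of the named set was picked on condition of such separation, so these counts are not separate evidence. The share over all transcripts tested was not counted. The spread was wider in the low temperature experiment, with a median residual SD of 0.306 against 0.196 in the low phosphate experiment. When each of the 16 arrays was left out in turn, 84 of the 87 stayed called throughout, as did 6158 (78.2%) of all called differences and 396 (60.7%) of those with opposite calls.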

How the data were processed

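RNA from 16 leaf samples was labelled with Cy3 and hybridised to 1-colour Agilent custom maize arrays. The authors deposited scanner tables of background-subtracted spot intensity, made with Feature Extraction (11.0.1.1 per the file headers), and a table of log2 values that they had scaled to the 75th percentile and centred per probe. Here the intensities were log2 transformed after division by each array's 75th percentile over transcript probes, spots marked as outliers were left out, saturated spots were kept, and the test took probes that exceeded background clearly in all 4 replicates of 1 group or more. limma 3.58.1 in R 4.3.3 fitted 1 mean per group over the 16 arrays, and (low T minus control T) minus (low P minus control P) was called at over 2-fold and a Benjamini-Hochberg adjusted p under 0.05, as were the single responses on 8 arrays each. The procedure was tested on simulated data with independent noise and no slide effect. Of 100 simulated differences of 1.5 it recovered 67, and of 100 of size 3 it recovered 89. It called 7 of the unchanged transcripts.

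Genes and functions were taken from the study's lists, which pair 4382 tested probes with 3957 maize loci, and 2437 of these loci were matched to gene symbols of RefSeq. Sequences and coordinates were not used here. Named were the 8 most positive and 8 most negative called differences with a description, the 4 strongest opposite calls of each orientation, 3 same-sign transcripts with the largest and 3 with the smallest difference, each called member of the 5 phosphate lists, the member with the largest called difference of each other list, and 7 transcripts singled out in the study's text. Those picked as most positive, most negative, opposite or same-sign also had to be well above background and unsaturated on every array. Their stressed and control replicates had to be apart in the low temperature or the low phosphate experiment. Further list members are given as examples and were chosen after their values were seen. Members, lists and tests were chosen with earlier results of these data known.

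Alternatives covered background correction, scaling, filters, the deposited log2 table, weights, all 24 arrays, slides, pairing and single arrays. Same-numbered low T and control T replicates deviated together (r of deviations 0.193 to 0.425), and those of low P and control P did not (-0.106 to 0.0451). Differently numbered low T and control T replicates of the same slide did so too. Their r was 0.413 and 0.235 on the first slide and 0.169 and 0.173 on the other. No label pairs the replicates, and number and slide cannot be told apart here. The number of arrays limits the precision.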

Additional observations from a re-analysis of the deposited data

Results flagged for a closer look

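For 15 of the named transcripts 1 array lay far from the other 3 of its group, by Dixon's criterion for 4 values. This was so in 16 of 371 groups (4.31%), and chance gives about 1 in 20.

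In the phosphate lists, low T replicate 1 was the high array for GRMZM2G171423, the SPX1-like protein (2.78, the others 0.21 to 0.44), for GRMZM2G122108, the SPX4-like protein (0.87, the others -0.51 to -0.29), and for GRMZM2G139639, pht11 (-0.05, the others -0.89 to -0.86). Control P replicate 2 was high for GRMZM2G326707, pht1 (2.35, the others 2.01 to 2.05), and for the acid phosphatase GRMZM2G434170 (-2.29, the others -2.77 to -2.70). Control P replicate 3 was low for the SPX3-like GRMZM2G370780 (4.09, the others 4.31 to 4.34) and the acid phosphatase GRMZM2G315848 (3.78, the others 4.12 to 4.16). Control P replicate 4 was low for the SPX-MFS protein GRMZM2G166976 (0.35, the others 1.41 to 1.50). The acid phosphatase GRMZM2G313875 had a low value in low T replicate 4 (-4.95, the others -4.27 to -4.17) and a high one in control P replicate 4 (-4.06, the others -4.23 to -4.21).

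Outside these lists, low T replicate 4 was high for the kinase subunit GRMZM2G172214 (4.49, the others 3.89 to 3.97). Low P replicate 3 was high for glutamate decarboxylase GRMZM2G451314 (0.04, the others -0.48 to -0.46) and low for the CXC-domain protein GRMZM2G153754 (-0.57, the others -0.30 to -0.26) and the glutathione S-transferase GRMZM2G016241 (2.20, the others 3.50 to 3.56). Control T replicate 4 was low for the amino acid transporter GRMZM2G101125 (-2.11, the others -1.64 to -1.56), and control P replicate 1 for the aspartyl protease GRMZM2G050364 (-1.13, the others -0.69 to -0.61). Each of these differences except that of GRMZM2G166976 kept its call under every alternative that was run.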

How the results depend on the processing

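The setting with normexp background correction and the call limits moved the counts most. The normexp setting also started from median spot signals and added an offset of 50, and the part of each was not tested. With normexp 3641 differences were called (1649 higher, 1992 lower) and 219 opposite, beside 1634 low T and 1609 low P calls. By adjusted p alone 13265 differences and 2677 opposite transcripts passed, and by limma's treat against 1.5-fold 4592 and 268. Opposite calls numbered 1120 with slide 1 alone and 358 with slide 2 alone. Spike-in scaling on probes well above background gave 7040 low P calls. Leaving out single arrays gave 7262 to 8911 differences, 498 to 942 opposite transcripts, 3707 to 5023 low T calls and 3272 to 3596 low P calls.

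The replicate number as a block, which treats same-numbered samples as pairs, gave 8101 differences and 708 opposite transcripts. The call of GRMZM2G096358 was the only named difference lost. In the low T response alone this block gave 4778 calls, and 68 of the 92 named transcripts passed in place of 62. A slide block gave 8300 and 775, and 4988 low T calls. The deposited table gave 7836, all 24 arrays 7685, and no filter 8175. Over 2758 alternative values of the 92 named transcripts, no called difference changed sign. The call was lost in 60 of these values, over 11 transcripts. Uncalled differences near 0 could change sign, as for GRMZM2G076723 with 0.4 on slide 1 and -0.38 on slide 2. Of 35 list medians, 16 changed sign under some alternative, 15 of them under quantile or spike-in scaling. In 5 cases both the median itself and its shift were larger than the spread of that median: starch metabolism was -0.04 with spike-in scaling on probes well above background, nitrate transport 0.01 with normexp, and the maize senescence markers 0.12 with normexp, 0.16 after quantile normalisation and 0.12 without the 2 arrays that stood apart. The causes were not tested. Dim transcripts limit the sizes: of the 4784 lower differences, 306 had a group not well above background on any array, and of the 3088 higher ones 144.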

Other observations

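Further lists are given with their counts, to be read against 9.82% higher and 15.2% lower over all transcripts. Of 27 autophagy transcripts, for the recycling of cell contents, 23 had a difference above 0, with a median of 0.60. The 3 that passed as higher make a share near that of all transcripts, and the largest was an ATG3 transcript (AC197919.2_FG001, 1.42). Their median log2 signal was -0.04, -0.04, -0.10 and -0.26 in low T leaves, against -0.24, -0.32, -0.50 and -0.31 in control T leaves. It was -0.24, -0.22, -0.40 and -0.25 in low P leaves, against 0.24, 0.11, 0.10 and 0.11 in control P leaves. The low P groups were apart, and low T replicate 4 lay just below the highest control T array.

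Of 62 serine proteases 16 were lower and 3 higher, and of 42 aspartyl proteases 10 were lower and 2 higher, whereas of 29 cysteine proteases 7 were higher and 4 lower. For serine and aspartyl proteases the higher counts were below the share over all transcripts. A cathepsin L-type protease, GRMZM2G130053, had 4.37, with changes of -0.48 in the cold and -4.85 under low P, and another, GRMZM2G036203, had -3.97, with -3.09 and 0.88. Of 21 senescence-linked transcription factors 8 were lower and 1 higher, although their median was 0.19. In the oxidative pentose phosphate pathway a cytosolic 6-phosphogluconate dehydrogenase, GRMZM2G440208, had 4.26, with changes of 1.04 and -3.22. Of 23 transcripts of cellulose synthesis 9 were raised by low P (8.22% of all transcripts) and 2 by the cold (7.26% of all). Between the responses 1 was higher and 3 lower, below the shares of all transcripts. The median change was 0.49 in the cold and 0.79 under low P, and the median difference was -0.30. The 1 with a higher difference, GRMZM2G014558, had 5.37, and its difference was 7.62 on slide 1 and 3.12 on slide 2.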
